A study of Mus musculus with 8 samples.

Results

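The 9 genes described here encode transcription factors of the skeletal muscle lineage: the myogenic basic helix-loop-helix (bHLH) factors Myod1, Myog, Myf5 and Myf6, the MADS-box factors Mef2a, Mef2c and Mef2d, the paired box factor Pax7 and the homeobox factor Six4. They were taken by gene name from a table of 54091 genes, and all 9 were found, each in 1 row. RNA was sequenced from the white part of the quadriceps of 8 chow-fed male mice of 11 to 14 weeks. In 4 animals (Loxp) both Acot2 alleles carried loxP sites and no recombinase is named. In the other 4 (Cre), labelled CKM Cre, Acot2 was knocked out in muscle by a Cre recombinase under the muscle creatine kinase (Ckm) promoter. The Ckm promoter acts in muscle fibres, so the recombinase and the loss of Acot2, a mitochondrial acyl-CoA thioesterase, came together in the same animals and their effects cannot be told apart.

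Myogenic bHLH factors bind E-boxes as dimers with ubiquitous E-proteins and switch on muscle genes. In development Myf5 and Myod1 commit cells to the lineage, Myog drives their differentiation into fibres, and Myf6 (also called MRF4) is the member that prevails in adult fibres. MEF2 factors bind an A/T-rich site beside many E-boxes and act with the bHLH factors, under the control of class II histone deacetylases and calcium-dependent kinases. Pax7 marks satellite cells, the stem cells that lie along the fibre, and homeodomain proteins such as Six4 bind MEF3 sites, among them the one in front of Myog.

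The promoter windows of Myog and Mef2a, which hold motifs named for members of this group, and that of Ckm, the gene whose promoter drove the recombinase, are shown first. The sequences are from RefSeq on GRCm38.p6, run from 250 bases before the start of the gene to 50 bases from it, and are written 5′ to 3′ on the strand of the gene. Capitals mark E-boxes (CANNTG), the MEF3 motif (TCAGGTT, searched on both strands) and the MEF2 core, which is the MEF2 box with any base allowed at its outer positions.
Myog (chr1:134289754-134290053, plus strand): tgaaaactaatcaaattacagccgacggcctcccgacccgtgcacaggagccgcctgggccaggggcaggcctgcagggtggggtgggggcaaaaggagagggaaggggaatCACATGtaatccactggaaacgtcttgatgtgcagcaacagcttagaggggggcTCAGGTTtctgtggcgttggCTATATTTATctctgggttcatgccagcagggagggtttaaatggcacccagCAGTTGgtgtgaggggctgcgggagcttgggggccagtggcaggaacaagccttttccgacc
Mef2a (chr7:67372809-67373108, minus strand): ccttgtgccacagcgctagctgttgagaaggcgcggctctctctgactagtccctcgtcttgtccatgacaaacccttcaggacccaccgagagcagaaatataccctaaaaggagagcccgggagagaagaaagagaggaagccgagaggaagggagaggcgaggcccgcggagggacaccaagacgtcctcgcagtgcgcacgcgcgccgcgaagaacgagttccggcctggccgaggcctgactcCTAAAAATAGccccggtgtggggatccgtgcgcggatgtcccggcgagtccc
Ckm (chr7:19410844-19411143, plus strand): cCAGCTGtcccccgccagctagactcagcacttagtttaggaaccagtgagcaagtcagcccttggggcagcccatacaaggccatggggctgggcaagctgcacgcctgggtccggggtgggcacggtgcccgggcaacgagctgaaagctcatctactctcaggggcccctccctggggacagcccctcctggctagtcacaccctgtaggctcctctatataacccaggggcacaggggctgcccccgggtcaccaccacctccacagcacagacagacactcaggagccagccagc

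In the Myog window the 2 E-boxes lie from -138 to -133 (CACATG) and from -12 to -7 (CAGTTG), counted from the RefSeq start as base 1. The GENCODE model of Myog, used for its position and length, starts further upstream and takes in the second of these E-boxes. A MEF3 motif lies between them, from -84 to -78, and a MEF2 core from -64 to -55. The Mef2a window holds 1 full MEF2 box, which spans the start from -2 to 8, and no E-box. The Ckm window holds 1 E-box (CAGCTG) at its far end, from -249 to -244. E-boxes are common, with at least 1 in 72.3% of 32851 promoter windows of this length. MEF3 motifs occurred in 4.07% of these windows, the MEF2 core in 9.23% and the full MEF2 box in 3.19%. Windows for 7 of the 9 genes were in the table, and Myod1 and Myf6 were not. Of those 7 genes, Mef2c (3 starts) and Six4 (2 starts) also held a MEF3 motif at 1 start each. These matches are letters in a window and were not measured as bound sites.

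The shallowest library held 30415429 reads and the deepest 48834283. Acot2, the targeted gene, fell from 213 ± 45.9 normalized reads in Loxp to 47.3 ± 5.03 in Cre libraries (SD, n = 4 each; limma adjusted p = 0.000962). The labelled tissue was checked on its fibre markers: Myh4, the myosin of fast glycolytic fibres, had 493369 normalized reads per kilobase of exon on average, and Myh7, the slow myosin, 140.8. Slow fibre genes were high in Cre replicates 3 and 4, and adipocyte genes in Loxp replicates 2 and 3. The fit was therefore repeated without these libraries, and the values are given for some members. A normalized read is a read count divided by a factor of its library, and the deposited log2 values were turned back to this scale for group means and SD.

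The members differed widely in level. Counted as normalized reads, Mef2c was highest with 28455 ± 1729 over the 8 libraries (SD, n = 8), followed by Mef2a with 7306 ± 384, Mef2d with 3546 ± 343, Myf6 with 1978 ± 157 and Six4 with 1906 ± 173. Myod1 had 266 ± 42.2, and Pax7 (73.7 ± 13.7), Myog (66.03 ± 12.2) and Myf5 (38.7 ± 10.1) lay under 100.

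**Figure D1:**
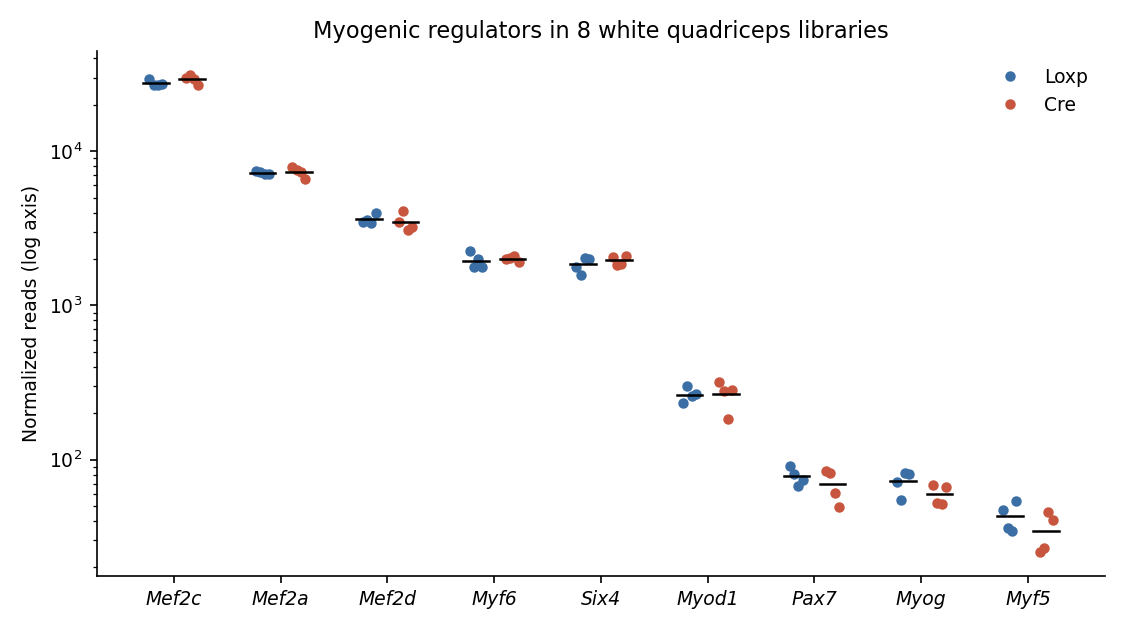
Normalized reads (log axis) of the 9 genes in the 4 Loxp (blue) and 4 Cre (red) libraries, with 1 point per library and a black line at each group mean. Mef2c lies near 28455 and Myf5 near 38.7, and the 2 groups overlap for each gene.

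Since longer transcripts collect more reads, levels of different genes were compared per kilobase. With all annotated exons of a gene joined, Mef2c had 1811 ± 110.0 and Myf6 1566 ± 124 normalized reads per kilobase (SD, n = 8), so the shortest gene of the group, with 1263 bases of exon, came close to the most abundant. Mef2d followed with 593 ± 57.4, Mef2a with 498 ± 26.2, Six4 with 176 ± 15.96 and Myod1 with 143 ± 22.7. Myog had 44.2 ± 8.17, Myf5 18.6 ± 4.83 and Pax7 12.6 ± 2.34. On this scale Mef2c exceeded 97.4% of the 15857 protein-coding genes with reads, Myf6 96.9%, Myod1 72.8%, Myog 51.7% and Pax7 35.9%.

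Positions are on GRCm38 with GENCODE M21 gene models. Myod1 (chr7:46376474-46379099, plus strand), Myog (chr1:134289989-134292548, plus), Myf5 (chr10:107482908-107486134, minus) and Myf6 (chr10:107492853-107494737, minus) are compact genes of 3 exons each. Mef2a (chr7:67231163-67372858, minus), Mef2c (chr13:83504034-83667080, plus), Mef2d (chr3:88142372-88172086, plus) and Pax7 (chr4:139737062-139833528, minus) are longer, and Six4 lies at chr12:73099609-73113456 on the minus strand. The 4 bHLH genes, Mef2c and Pax7 shared no 50-base stretch of exon with another gene, and Mef2a (3.65%), Mef2d (7.81%) and Six4 (0.486%) shared little.

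Not every step in this order was larger than the spread between libraries. The ranges of Mef2c and Myf6 overlapped, as did those of Mef2d and Mef2a, of Six4 and Myod1, and of Myf5 and Pax7, whereas those of the other 4 neighbouring pairs did not. Within single libraries Mef2c lay above Myf6 in 8 of 8, at 1.05 to 1.25 times its level, and Myf5 above Pax7 in 6 of 8.

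The length chosen matters for the MEF2 genes, whose annotation joins many alternative exons (15715 bases for Mef2c, 14681 for Mef2a). Per kilobase of the longest transcript, Mef2c had 4533 ± 275, 2.89 times Myf6, and Mef2a with 1319 ± 69.4 moved above Mef2d with 657 ± 63.6. Per kilobase of coding sequence Mef2a with 4890.5 ± 257 also lay above Myf6 with 2725 ± 216. Under all 3 lengths Mef2c came first and Six4, Myod1, Myog, Myf5 and Pax7 took the last 5 places in this order.

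**Figure D2:**
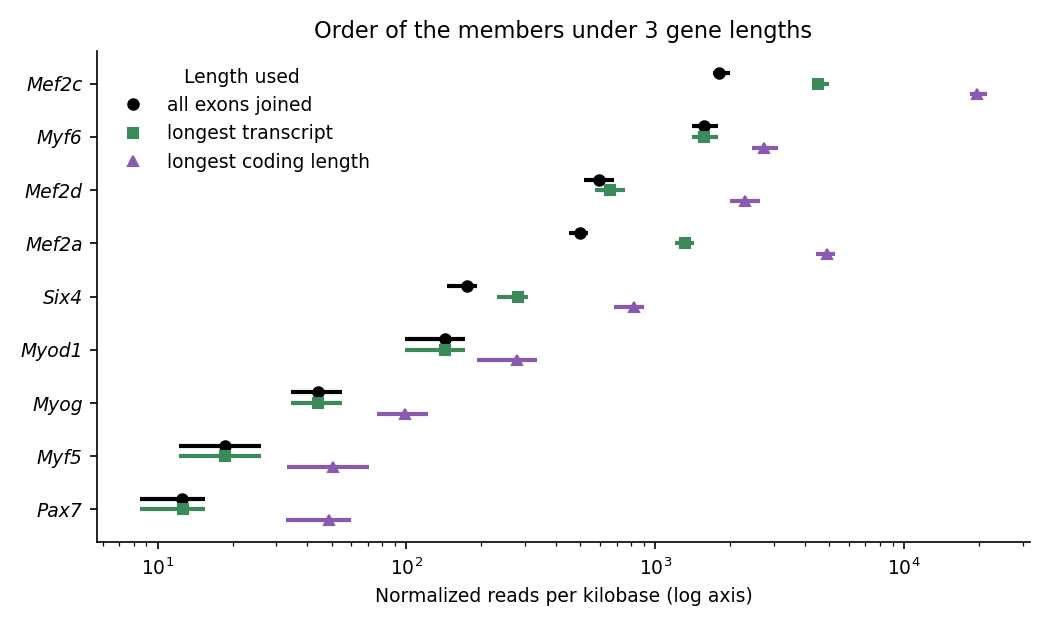
Level of each gene in normalized reads per kilobase (log axis), with the mean over 8 libraries as a symbol and the lowest to highest library as a bar, for 3 definitions of gene length. Mef2c leads under each of them, while Mef2a and Mef2d change places between joined exons (498 and 593) and the longest transcript (1319 and 657).

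Among the bHLH factors, Myf6, the one known from adult fibres, made up most of the family's RNA. Per kilobase of joined exon it took 88.3% ± 1.74 of the sum of the 4 genes (SD, n = 8), with 86.3% in the lowest library and 91.4% in the highest. Myod1 took 8.12% ± 1.53, Myog 2.50% ± 0.4997 and Myf5 1.05% ± 0.295. The level of Myf6 was 8.82 to 16.7 times that of Myod1 and 25.9 to 48.1 times that of Myog in single libraries. With coding lengths the share of Myf6 was 86.4% ± 1.94.

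Within the MEF2 family, Mef2c took 62.4% ± 1.41 of the summed level per kilobase of joined exon, Mef2d 20.4% ± 1.55 and Mef2a 17.2% ± 0.622. By the longest transcript these shares were 69.6% ± 1.01, 10.1% ± 0.865 and 20.3% ± 0.672. Per kilobase of joined exon the ratio of Mef2c to Mef2a was steady, from 3.41 to 3.86 over the 8 libraries. The ratio of Mef2c to Mef2d ran from 2.61 to 3.61 on that scale, and from 5.91 to 8.16 by the longest transcript. With joined exons, Mef2c took 61.5% ± 1.23 of the family in Loxp and 63.3% ± 0.972 in Cre libraries (SD, n = 4 each).

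The second question was whether these regulators differ between Cre and Loxp muscle. All 9 had enough reads for the test, which asked for at least 10 normalized reads in at least 4 libraries, and limma (a linear model per gene with moderated variances) called 0 of 9 at an adjusted p under 0.05. The background is low, with 0.0147% of the 13638 tested genes called, 1 of them (0.00733%) higher and 1 (0.00733%) lower in Cre. None of the 9 had an unadjusted p under 0.05 in limma (2.91% of all genes did), and limma-voom on the recovered reads also called 0. For none of the 9 did the groups fail to overlap (1.92% of all genes). The log2 fold changes lay above 0 for 4 members and below 0 for 5, with a median of -0.0076 against 0.0049 over all tested genes. Of all tested genes 51.7% lay above 0, which is the share to set beside such counts here and below. Animals within a group count as replicates here because the labels give each library its own animal number.

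Myf6 is the best measured of the bHLH factors. It had 2256, 1789, 1994 and 1779 normalized reads in Loxp replicates 1 to 4 and 1995, 2026, 2086 and 1900.3 in Cre replicates 1 to 4. The Cre values lay inside the range of the Loxp values. On the log2 scale Cre and Loxp differed by 0.040 (SE 0.079), with a 95% confidence interval from -0.13 to 0.22, so changes beyond 0.911-fold and 1.16-fold lie outside the interval.

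Myod1, the lineage factor that stays active at low level in fast fibres, had 233, 299, 259.8 and 265 normalized reads in Loxp and 321, 280.0, 184 and 285 in Cre libraries, in replicate order. The highest and the lowest of the 8 libraries were both Cre. The group means were 264 ± 26.9 and 267 ± 58.5 (SD, n = 4 each), with a log2 fold change of -0.0076 (SE 0.16). Cre replicate 3 alone set the low end, and without it the log2 fold change was 0.16 (limma adjusted p = 0.99996). Cre replicates 3 and 4, with 184 and 285, are the libraries high in slow fibre genes, whose part in these values was not tested.

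Myog, the differentiation factor whose promoter is shown above, had 71.4, 54.8, 82.1 and 81.2 normalized reads in Loxp and 68.2, 52.6, 51.4 and 66.6 in Cre libraries. The lowest 2 libraries were Cre and the highest 3 Loxp, with overlap between the groups. The means were 72.4 ± 12.7 and 59.7 ± 8.93, and Cre differed from Loxp by -0.27 on the log2 scale (SE 0.19, 95% interval -0.69 to 0.16), which did not pass (limma adjusted p = 0.9995; exact two-sided permutation p = 0.171). With 43 to 94 reads per library, counting alone gives Myog a coefficient of variation near 12.1%, against 18.5% observed over the 8 libraries.

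Myf5 lies 6718 bases from Myf6 on chromosome 10, on the same minus strand, and the level of Myf6 per kilobase of joined exon was 54.2 to 130.3 times its own. It had 47.3, 35.8, 34.4 and 54.1 normalized reads in Loxp and 25.3, 26.9, 45.7 and 40.4 in Cre libraries. Cre replicates 1 and 2 were lower than all other libraries, and Cre replicates 3 and 4 lay within the Loxp range. The log2 fold change of -0.32 (SE 0.27, 95% confidence interval -0.91 to 0.26) was the widest departure from 0 among the 9 and did not pass (limma adjusted p = 0.9995; exact two-sided permutation p = 0.229). Without Cre replicates 3 and 4, it was -0.67 (SE 0.30, limma unadjusted p = 0.0503, limma adjusted p = 0.998). That unadjusted p was the lowest among 168 member values over 19 alternative settings. Without Loxp replicates 2 and 3 the log2 fold change was -0.58. Leaving out 1 library at a time gave -0.47 (without Cre replicate 3) to -0.19 (without Cre replicate 1).

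Mef2c had 29333, 26767, 26752 and 27498 normalized reads in Loxp and 29695, 31423.5, 29278 and 26889 in Cre libraries. The top 2 libraries were Cre, yet Cre replicate 4 lay among the lowest Loxp values. The difference was 0.087 on the log2 scale (SE 0.069, 95% interval -0.066 to 0.24; exact two-sided permutation p = 0.171), a range of 0.955-fold to 1.18-fold. Its coefficient of variation over the 8 libraries was 6.08%, against 0.588% from counting.

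Mef2a, the second most read member, had 7436, 7334, 7111 and 7072 normalized reads in Loxp and 7916, 7599.6, 7356 and 6626 in Cre libraries. Loxp libraries lay within a narrow band, and the Cre libraries reached past it on both sides. The difference on the log2 scale was 0.024, with SE 0.063 and a 95% confidence interval from -0.12 to 0.16. The spread within groups was among the smaller ones, with 11.5% of tested genes at or below it for Mef2a and 10.3% for Mef2c, compared with 77.7% for Myf5.

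Mef2d had 3489.9, 3569, 3427 and 4005 normalized reads in Loxp and 3485, 4079, 3089 and 3228.5 in Cre libraries. Its lowest 2 libraries were Cre replicates 3 and 4, and its highest was Cre replicate 2. The log2 fold change of -0.068 (SE 0.088) became 0.060 without Cre replicates 3 and 4. An antisense gene, 1700113A16Rik, shares 531 exon bases with Mef2d, and Lysmd4 shares 302 with Mef2a on the opposite strand. The libraries were stranded, but no source used here states if counting used the strand, so reads in these bases are uncertain.

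Pax7 had 90.5, 80.6, 67.8 and 73.6 normalized reads in Loxp and 85.02, 81.9, 60.5 and 49.6 in Cre libraries. As for Mef2d, the lowest 2 libraries were Cre replicates 3 and 4, and the other 2 Cre libraries lay within the Loxp range. The difference was -0.197 on the log2 scale (SE 0.20, 95% interval -0.65 to 0.25), and 0.10 without these libraries. In a piece of muscle, fewer satellite cells and less Pax7 RNA per cell cannot be told apart. The summed normalized reads of 15 other genes listed as satellite cell markers ran from 9092 to 9748 in Loxp and from 8934 to 9959 in Cre libraries. The list was not restricted to genes active only in satellite cells, so this sum does not measure their number.

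Six4 lies on chromosome 12, 10.9 Mb from Acot2. It had 1779, 1582.5, 2018 and 2011 normalized reads in Loxp and 2063, 1834, 1867 and 2092 in Cre libraries. The groups overlapped, with Loxp replicate 2 lowest. Cre exceeded Loxp by 0.093 on the log2 scale (SE 0.086, 95% interval -0.097 to 0.28; exact two-sided permutation p = 0.40).

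**Figure D3:**
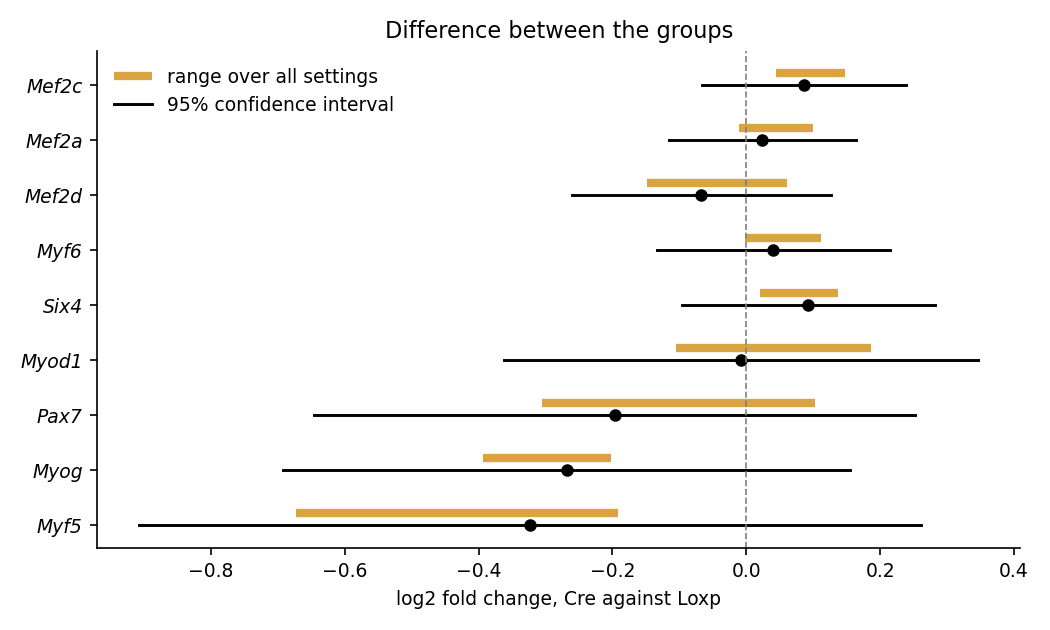
Log2 fold change of Cre against Loxp for each gene, ordered by mean normalized reads, as a point with limma's 95% confidence interval (black line) and the lowest to highest value over the reported and 19 alternative settings (yellow bar). Each interval includes 0, and that of Myf5 (-0.91 to 0.26) is wider than that of Mef2c (-0.066 to 0.24).

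Differences were bounded least tightly for the 3 genes with the fewest reads. For 6 of the 9 genes (Myod1, Myf6, Mef2a, Mef2c, Mef2d and Six4) the 95% confidence interval lay within a change of 1.5-fold in either direction. For Myog it reached down to 0.619-fold, for Pax7 to 0.639-fold and for Myf5 to 0.533-fold. A p above the threshold does not show that these levels were equal.

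Markers of tissue composition differed between the libraries. All 12 slow fibre genes were tested and 11 had log2 fold changes above 0 with none called, with summed normalized reads of 2527 to 5120 in Loxp and 2582 to 22320 in Cre libraries. Without Cre replicates 3 and 4, 3 of these genes lay above and 9 below 0. Tnni1, a slow troponin, was at 0 in Cre replicate 1. All 10 adipocyte markers had log2 fold changes below 0 with none called, with sums of 3216 to 25389 in Loxp and 3219 to 4158 in Cre. Their median log2 fold change was -1.86, and -0.23 without Loxp replicates 2 and 3, with 2 above and 8 below 0. Endothelial markers, in whose cells Mef2a and Mef2c are also known to be active, had sums of 8094 to 9302 in Loxp and 7059 to 9829 in Cre. Fibroblast markers (6 of 8 above 0), smooth muscle markers (2 of 6), macrophage markers (1 of 8), nerve and Schwann cell markers (5 of 7) and fast fibre genes (5 of 13) held no called gene either. The part of these differences in the values of the members was not tested. Leaving out the libraries they point to gave 0 called members in both cases, as did the fit to all 8. These counts therefore cannot show whether composition played a part. Without Cre replicates 3 and 4 the log2 fold changes of Myod1, Mef2d and Pax7 changed sign. The other members kept theirs, with Myf5 moving from -0.32 to -0.67. Without Loxp replicates 2 and 3 those of Myod1 and Myf6 changed sign.

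**Figure D4:**
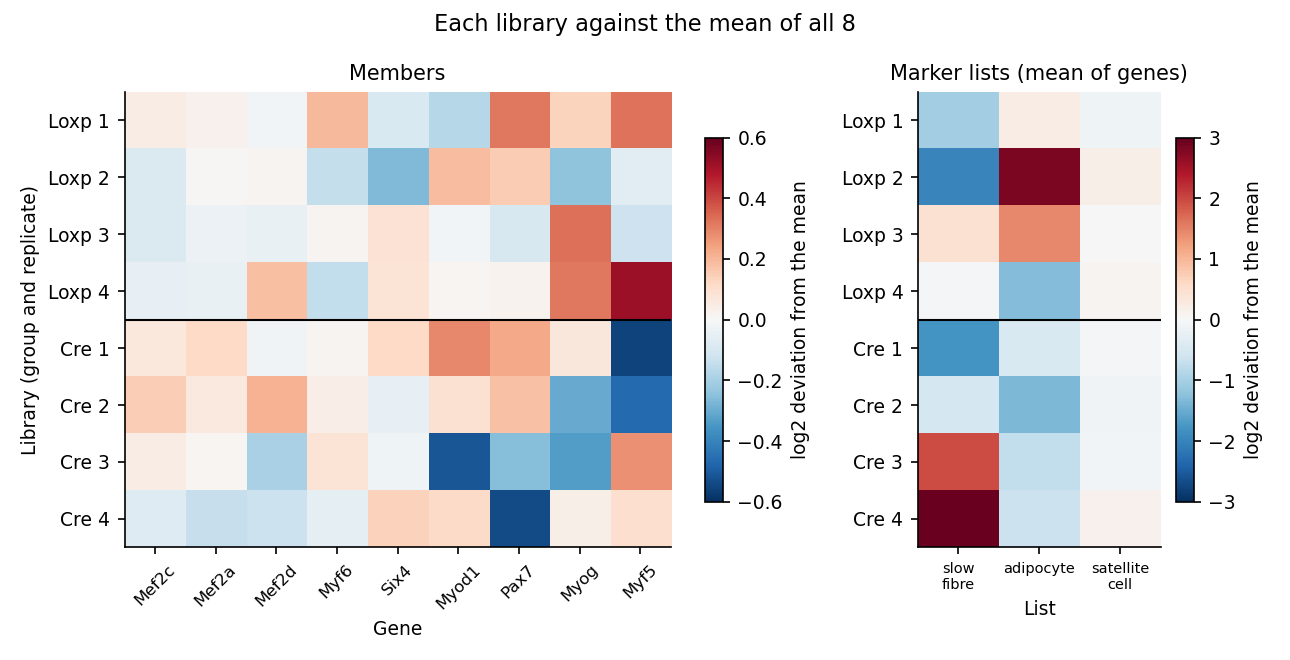
Log2 deviation of each library from the mean of all 8, for the 9 genes (left) and for the mean of the slow fibre, adipocyte and satellite cell lists (right, with a wider colour scale), red above and blue below the mean. Cre replicates 3 and 4 are low in Pax7 and Mef2d and high in slow fibre genes, and Cre replicates 1 and 2 are low in Myf5.

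The partners and targets of these factors were described from lists chosen by function, and none of the 6 lists held a gene called by limma in either direction. Of the E-proteins and bHLH inhibitors, 19 of 20 were tested, 7 above and 12 below 0, with a median log2 fold change of -0.034. Bhlhe41, a repressor of the same protein class, had 2013 ± 149.7 normalized reads in Loxp and 1817 ± 283 in Cre libraries, and Id2, which sequesters E-proteins, 62.1 ± 10.7 against 53.1 ± 10.2 (SD, n = 4 each). MEF2 co-regulators and kinases had 24 of 25 genes tested, 10 above and 14 below 0 (median -0.023). Cabin1, an inhibitor of calcineurin and MEF2, had 462 ± 13.1 against 417 ± 37.9, and Rcan1, a calcineurin-regulated inhibitor of calcineurin, 2250.5 ± 294 against 1978 ± 284. Of the relatives of Six4 and their EYA and DACH partners, 12 of 12 were tested, 4 above and 8 below 0 (median -0.0205). Eya2, a co-activator of Six4 and related factors, had the smallest p of that list and differed by 0.55 (SE 0.29) on the log2 scale.

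These balances vary with single libraries. Leaving out 1 library at a time gave 4 to 10 E-proteins and inhibitors above 0 (without Cre replicate 4 and Cre replicate 3), and 6 to 13 MEF2 co-regulators (without Cre replicate 1 and Cre replicate 3). For the list of Six4 relatives and partners the balance turned to 9 above and 3 below without Cre replicate 3 (median 0.050) and to 8 above and 4 below without Loxp replicate 4.

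Known targets of the myogenic factors and MEF2 were tested for 27 of 30 genes, of which 19 lay above and 8 below 0, with a median log2 fold change of 0.019 beside 0.0049 over all genes. Of all tested genes 51.7% lay above 0. The balance of the targets also varies with single libraries. Without Loxp replicate 3 it was 12 above and 15 below, and without Cre replicate 3 it was 14 above and 13 below. Leaving out Cre replicate 4 gave 22 above and 5 below. Ckm, whose promoter drove the recombinase, had 681740 ± 55790 normalized reads in Loxp and 684627 ± 72233 in Cre libraries. Chrnd and Chrne, subunits of the acetylcholine receptor, had log2 fold changes of 0.61 (SE 0.33) and 0.23 (SE 0.14). The fusion genes Tmem8c (myomaker) and Gm7325 (Mymx), which Myod1 and Myog switch on in fusing myoblasts, reached at most 2.16 and 7.79 normalized reads in any library. Denervation is known to raise Myog and the fetal receptor subunit Chrng. Of a list of 18 genes that respond to it, 15 were tested, 8 above and 7 below 0 (median 0.018). When 1 library was left out, 6 to 11 lay above 0. The list was not sorted by the direction of the response, so these counts cannot show whether such a response was present. Chrng itself reached at most 5.03 normalized reads. Of 16 satellite cell markers, 15 were tested, 8 above and 7 below 0 (median 0.013), with 6 to 9 above when 1 library was left out, and Calcr, the calcitonin receptor of quiescent satellite cells, had 22.7 ± 11.7 against 12.3 ± 6.26.

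**Figure D5:**
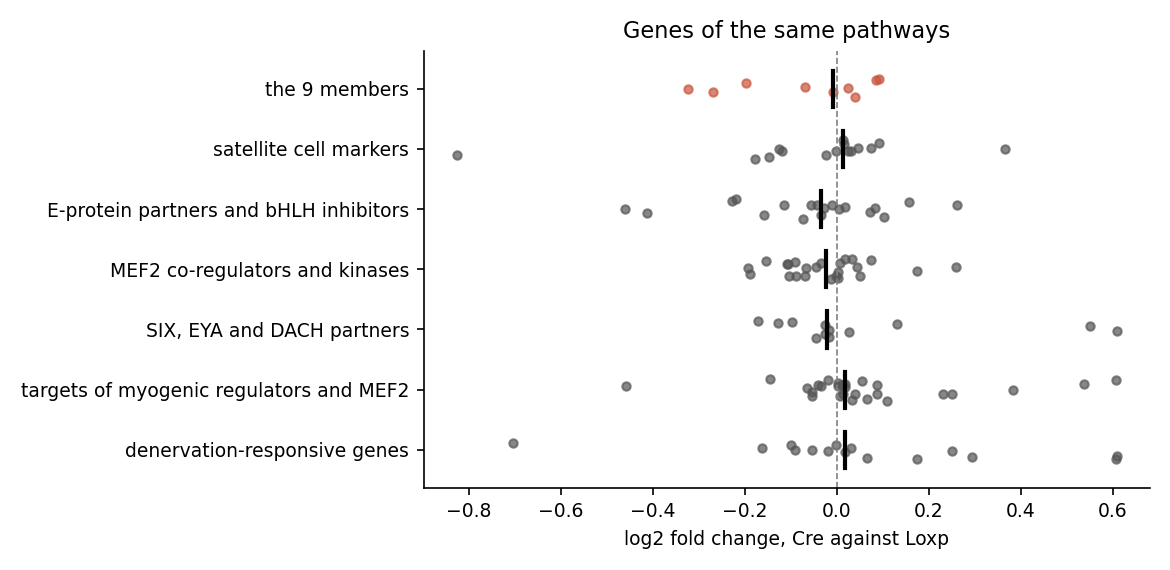
Log2 fold changes of Cre against Loxp for the 9 genes (red) and for the tested genes of 6 functional lists (grey), with 1 point per gene, spread vertically at random, and a black line at each median. The medians lie between -0.034 and 0.019, and no point stands for a called gene.

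The genes whose profiles over the 8 libraries came closest to single members were listed by Pearson correlation of log2 values, as a description of these libraries. For Mef2a these were Rragd (0.995) and Trdn (0.970), the first and the third in order. Usp25 (0.987) came first for Mef2c, Irs1 (0.986) for Myod1, Sema3c (0.985) for Six4, Zfp444 (0.975) for Mef2d, Gm44033 (0.972) for Myf5, 5730409E04Rik (0.967) for Pax7, Nfe2l2 (0.960) for Myf6 and Akap13 (0.954) for Myog. Each is the top match among 13638 genes over 8 points that share their library, so no p was computed. No member was among the 3 closest genes of another.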

How the data were processed

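The labels' protocols describe stranded libraries of white quadriceps RNA. The submitters' processing notes list STAR, HTSeq, cutadapt, FastQC and DESeq2, with GRCm38 as the build, but neither versions nor the steps each served. The deposited values are log2 of normalized reads plus 1, found from the values: with the log undone, 100% of values below 1000 reads lay within 0.1 of whole multiples of 1 read, which gave the totals.

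The 13638 genes reaching 10 normalized reads in 4 or more libraries entered a fit by limma 3.58.1, run in R 4.3.3 (trended variances, Benjamini-Hochberg adjustment over all genes, threshold 0.05). Exact permutation tests used the 70 relabellings, whose smallest p is 0.0286. Lengths and positions came from GENCODE M21 by symbol, which matched 52301 genes. Replicates are the animals numbered in the labels. No library repeated another of its group (chi-square per gene 25.8 to 78.6). The code of the fit was tested on simulated libraries with noise drawn independently for each gene. They held no differences in tissue composition, so that test does not cover the composition differences described above.

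Members, lists and alternatives were chosen with earlier results of these data known. Named genes were the members, Acot2, genes with the smallest p of each list (up to 4) and the closest profiles (3 per member, of which 1 to 3 are printed); Ckm, Chrng, Myh4, Myh7, Tnni1, the fusion genes and the genes under other observations were chosen outside this rule, for their role. Some genes that this rule names are not reported here.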

Additional observations from a re-analysis of the deposited data

How the results depend on the processing

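Under each of 19 alternatives (pseudocount 0.5 or 10, no filter, a filter at a mean of 100 normalized reads, scaling to total reads, quantile normalization, library weights, limma-voom, a block for adjacent animal numbers, leaving out each library, and leaving out Cre replicates 3 and 4 or Loxp replicates 2 and 3) limma called 0 of the tested members, with adjusted p of at least 0.8999. The higher mean filter left 6 members. Acot2 stayed between -2.29 and -1.94. Of 168 member values, 14 had the other sign. Myod1 was at 0.0073 with scaling to total reads, 0.0058 with quantile normalization, 0.072 with library weights, 0.042 with limma-voom, 0.053 without Loxp replicate 2, 0.16 without Cre replicate 3, 0.19 without Cre replicates 3 and 4 and 0.074 without Loxp replicates 2 and 3. Myf6 was at -0.0025 without Loxp replicate 4 and -0.0019 without Loxp replicates 2 and 3, Mef2a at -0.0012 with quantile normalization and -0.011 without Cre replicate 1, and without Cre replicates 3 and 4 Mef2d was at 0.060 and Pax7 at 0.10. Leaving out 1 library at a time, Myod1 ran from -0.10 to 0.16, Myf6 from -0.0025 to 0.11, Mef2a from -0.011 to 0.075, Mef2c from 0.053 to 0.13, Mef2d from -0.15 (without Cre replicate 2) to -0.014 (without Cre replicate 3), Myog from -0.39 to -0.20, Myf5 from -0.47 to -0.19, Pax7 from -0.31 (without Cre replicate 1) to -0.050 (without Cre replicate 4) and Six4 from 0.021 (without Loxp replicate 2) to 0.14. The cause was not tested. The labels give no shared replicate numbers. Adjacent animal numbers, used as a block, each joined a Cre and a Loxp animal. Their deviations correlated at 0.188, 0.151, -0.081 and -0.083. The pairs at 0.188 and 0.151 were each other's closest match in the other group, and the other pairs were not, so pairing was not established. With the block 513 genes had an unadjusted limma p under 0.05, against 397 without it. The block gave 0 called members. Low counts limit Myf5 most, with 22 to 57 reads per library.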

Other observations

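The proteins that work with these factors had levels that can be set beside them, all as means over 8 libraries in normalized reads per kilobase of joined exon. Of the E-proteins, the dimer partners of the bHLH factors, Tcf4 had 100.9 ± 6.54, Tcf12 84.5 ± 4.49 and Tcf3 77.998 ± 4.52 (SD, n = 8) beside 143 ± 22.7 for Myod1 and 1566 ± 124 for Myf6. By the longest transcript Tcf4 (322 ± 20.9) and Tcf12 (208 ± 11.1) lay above Myod1 and Tcf3 (107 ± 6.19) under it, so their order against Myod1 depends on the length used. The MEF2 repressors Hdac5 and Hdac4 had 149 ± 7.22 and 148 ± 12.7. Of the co-activators that work with Six4, Eya4 had 314 ± 33.5 and Eya1 134 ± 12.9, while Eya2 had 14.1 ± 5.19. Sim2, a bHLH factor known from the limb muscle lineage, varied widely with 86.3 ± 46.98. These genes were chosen after their values were seen.

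In none of the 20 groups examined (9 members and Acot2, in Loxp and in Cre) did 1 library stand apart by Dixon's test for groups of 4.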
